A study of Mus musculus with 10 samples.

Results

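The platelet-derived growth factor (PDGF) system was followed through its ligand genes Pdgfa, Pdgfb, Pdgfc and Pdgfd and its receptor genes Pdgfra and Pdgfrb. These 6 genes, of 22180 measured, were listed by name, and each is measured by 1 probe set with exactly 1 gene symbol. The list was drawn up with the difference between the groups already known (Pdgfd against the other ligands, and both receptors of mesenchymal cells), so the members were chosen by these expression differences, and the group differences of the 6 genes are a description and carry no test. The samples are portal tracts, the liver regions in which bile duct, portal vein and hepatic artery run together in a sleeve of fibroblasts and matrix, cut by laser capture from frozen sections of 1-week-old mice. RNA of 12 to 20 tracts per replicate was measured on 1 single-colour array each, 5 of Jag1+/-Rfng+/- and 5 of control, the controls labelled as strain C57Bl/6J. Jag1+/-Rfng+/- mice are heterozygous at Jag1, a ligand gene of Notch, and at Rfng, which encodes a glycosyltransferase that modifies Notch. The type of both alleles, the genotype behind the word control, the strain of the Jag1+/-Rfng+/- mice and whether each sample is a separate mouse were not stated in the labels. The study's design asks how remodelling and differentiation in the tracts differ between these genotypes.

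PDGF ligands are secreted dimers that bring receptor chains together and so switch on their tyrosine kinases. PDGF-A and PDGF-C act mainly through the alpha receptor, PDGF-D mainly through the beta receptor, and PDGF-B through both. PDGF-C and PDGF-D are released as latent forms with a CUB domain that a protease must remove. In many tissues epithelium or endothelium makes the ligands and fibroblasts, smooth muscle or pericytes carry the receptors. In liver the beta receptor marks stellate cells and other mesenchyme, and the alpha receptor is widely used as a fibroblast marker.

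All values are log2 expression as deposited, so a difference of 1 is a doubling. Levels of the PDGF genes were not ranked against each other, and gaps between them on the same array were compared only between groups. Otherwise probe set levels were set only against the olfactory receptor gauge below and the median level of all genes. The array medians lay between 3.22 and 3.30, and array data have no read depth, so the number of arrays limits the precision. Jag1+/-Rfng+/- replicate 5 stood apart: it correlated across genes at 0.961 to 0.968 with the others, against 0.969 to 0.988 among the other 9, and the label excl of unexplained meaning is attached to its name. Jag1 averaged 4.39 ± 0.63 in Jag1+/-Rfng+/- and 5.72 ± 0.93 in control, and Rfng 4.36 ± 0.16 and 4.82 ± 0.20 (SD, n = 5 each). Whether the probes lie in the altered part of either gene is unknown. As a gauge of an absent transcript, the 1088 olfactory receptor genes on the array had a median of 1.85 and a 95th percentile of 3.19 over all arrays.

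Pdgfd, Pdgfra, Pdgfrb and Pdgfc were lower in Jag1+/-Rfng+/- portal tracts, by 3.17-fold, 2.07-fold, 1.93-fold and 1.80-fold, while Pdgfa and Pdgfb lay within 0.07 log2 of control. At an unadjusted p under 0.05 in limma 4 of the 6 were lower and 0 higher, where 3.79% of all genes were lower and 2.98% higher. For 1 member, Pdgfd, all Jag1+/-Rfng+/- arrays lay below all control arrays, as for 0.766% of all genes, with 0.618% apart on the higher side. Past an adjusted p of 0.05 there were 0 of the 6, and 2 of all genes (0.00902%), 1 lower (0.00451%) and 1 higher (0.00451%). The list was chosen with this contrast known, so these counts say nothing beyond which genes were chosen. In bulk tissue, fewer cells of a type and less RNA per cell cannot be told apart.

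**Figure D1:**
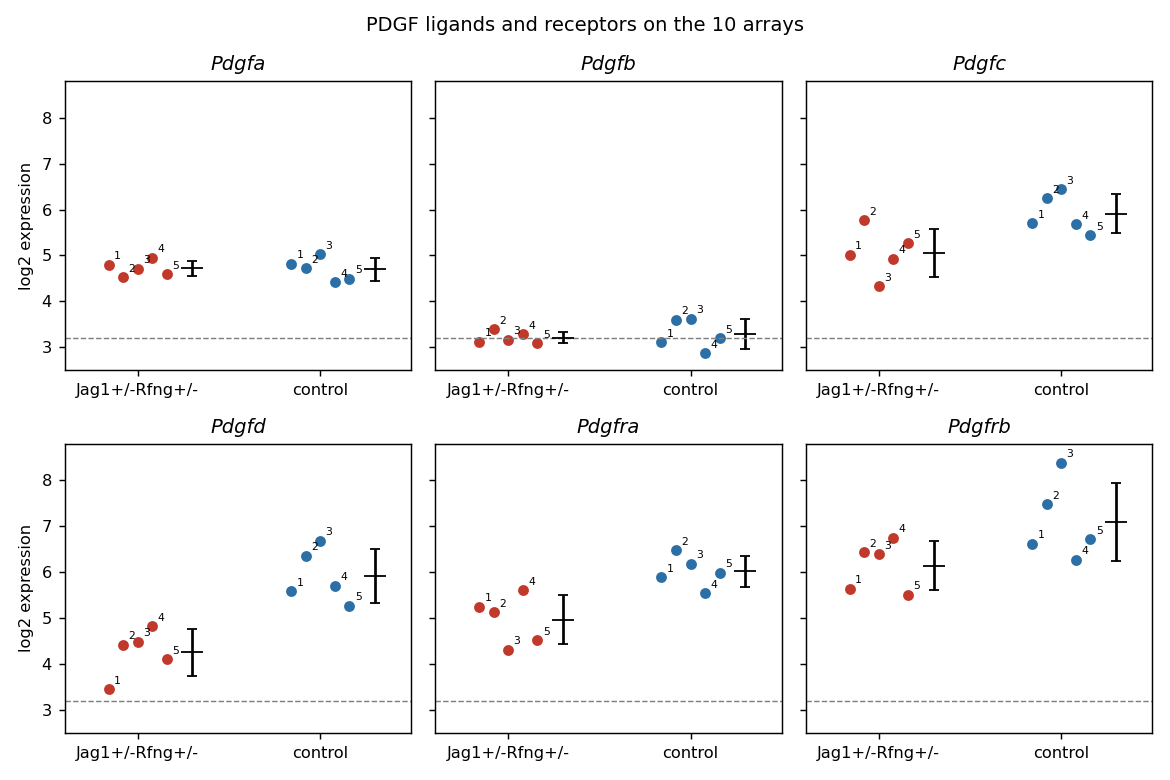
Log2 expression (vertical axis) of the 6 PDGF genes on each array, with Jag1+/-Rfng+/- left (red) and control right (blue). Digits are replicate numbers, black bars the mean ± SD of 5 arrays, and the dashed line the 95th percentile of olfactory receptor genes (3.19). Pdgfd is the gene whose groups do not overlap (3.45 to 4.82 against 5.27 to 6.69), and Pdgfb lies at the dashed line in both groups.

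Among the ligands, Pdgfd (probe set 17514460, chromosome 9) encodes PDGF-D, the latent ligand of the beta receptor, which in human cholangiocarcinoma is known as a factor that tumour cells use to recruit fibroblasts. Jag1+/-Rfng+/- replicates 1 to 5 read 3.45, 4.43, 4.48, 4.82 and 4.10, against 5.58, 6.36, 6.69, 5.71 and 5.27 in control replicates 1 to 5. The groups did not overlap: the highest Jag1+/-Rfng+/- array, replicate 4, lay below the lowest control, replicate 5, and replicate 1 was the lowest of all. The means were 4.26 ± 0.52 in Jag1+/-Rfng+/- and 5.92 ± 0.58 in control (SD, n = 5 each), a difference of -1.67 ± 0.30 log2 (SE). Among 22180 genes this difference ranked 14th from the most negative, with Pdgfra 51st, Pdgfrb 69th and Pdgfc 98th. The members were chosen with this difference known, so the ranks describe the choice and support nothing further.

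The promoter sequences show how the genes that were lower compare in their start regions with Pdgfa, which was not. They run from 250 bases before to 50 after a RefSeq start site (GRCm38.p6), in lower case with motif matches in capitals. The motif GTGGGAA, bound by the Notch effector RBPJ, was searched on both strands. So was its core TGGGAA, which the longer motif contains. The other motifs, also on both strands, were TATAAA, bound by TATA-binding protein, and GGGCGG, bound by Sp1.
Pdgfd (chr9:6168236-6168535, plus strand): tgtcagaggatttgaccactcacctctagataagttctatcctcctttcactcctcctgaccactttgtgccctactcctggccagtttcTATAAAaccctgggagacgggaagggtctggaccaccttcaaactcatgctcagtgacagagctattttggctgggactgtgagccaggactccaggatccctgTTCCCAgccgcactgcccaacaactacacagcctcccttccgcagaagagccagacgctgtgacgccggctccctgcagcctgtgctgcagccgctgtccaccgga
Pdgfc (chr3:81036166-81036465, plus strand): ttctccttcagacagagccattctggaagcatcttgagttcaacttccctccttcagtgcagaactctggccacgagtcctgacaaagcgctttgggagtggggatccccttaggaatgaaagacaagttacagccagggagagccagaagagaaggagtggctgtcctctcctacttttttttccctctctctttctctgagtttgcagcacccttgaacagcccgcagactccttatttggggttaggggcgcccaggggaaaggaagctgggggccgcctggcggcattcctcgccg
Pdgfra (chr5:75152001-75152300, plus strand): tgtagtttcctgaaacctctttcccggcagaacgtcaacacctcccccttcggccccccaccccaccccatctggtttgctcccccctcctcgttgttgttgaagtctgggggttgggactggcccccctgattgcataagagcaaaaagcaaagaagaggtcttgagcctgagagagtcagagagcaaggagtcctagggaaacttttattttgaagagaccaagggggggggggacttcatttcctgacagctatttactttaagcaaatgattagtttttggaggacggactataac
Pdgfa (chr5:138994895-138995194, minus strand): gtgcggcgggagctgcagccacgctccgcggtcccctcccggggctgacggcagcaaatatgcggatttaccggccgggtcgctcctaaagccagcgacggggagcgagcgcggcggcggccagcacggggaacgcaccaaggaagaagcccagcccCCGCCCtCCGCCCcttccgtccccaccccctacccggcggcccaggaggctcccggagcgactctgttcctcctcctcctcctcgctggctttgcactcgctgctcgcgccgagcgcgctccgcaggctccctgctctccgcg

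The Pdgfd window held TATAAA, found in 13.6% of 32851 promoters of this length, and TGGGAA on the opposite strand, found in 25.6%. Its TATAAA begins 160 bases before the start site. The Pdgfc and Pdgfra windows held 0 matches to the 4 motifs. The Pdgfa window shown held GGGCGG at 2 places on the opposite strand, and the window of its other start site also held the RBPJ core and the motif GGGCGG, the last found in 35.7% of promoters. The longer RBPJ motif GTGGGAA, in 6.38% of promoters, was in 0 of the 5 windows of these 4 genes. A match is a description of letters, and its absence says only that they are not in this window. Promoters of Pdgfb and Pdgfrb were not used here.

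Pdgfc (probe set 17398416, chromosome 3), the other latent ligand, read 5.01, 5.76, 4.33, 4.93 and 5.26 in Jag1+/-Rfng+/- replicates 1 to 5, against 5.71, 6.25, 6.45, 5.68 and 5.44 in control replicates 1 to 5. The groups overlapped through Jag1+/-Rfng+/- replicate 2, which exceeded 3 controls, while the other 4 Jag1+/-Rfng+/- arrays lay below every control. Its means were 5.06 ± 0.52 in Jag1+/-Rfng+/- and 5.90 ± 0.42 in control (SD, n = 5 each), a difference of -0.85 ± 0.26 log2 (SE). Unlike Pdgfd, which was lowest on Jag1+/-Rfng+/- replicate 1, Pdgfc was lowest on replicate 3.

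Pdgfa and Pdgfb, the classical ligands, which need no activating cleavage outside the cell, lay close to control. Pdgfa (probe set 17454345, chromosome 5) read 4.80, 4.52, 4.71, 4.95 and 4.59 in Jag1+/-Rfng+/-, against 4.82, 4.72, 5.03, 4.42 and 4.49 in control. The control range of 4.42 to 5.03 covers all Jag1+/-Rfng+/- values, and the difference was 0.02 ± 0.13 log2 (SE). Pdgfb (probe set 17319380, chromosome 15), known from endothelium and platelets as the ligand that recruits pericytes, read 3.12, 3.40, 3.17, 3.28 and 3.09 in Jag1+/-Rfng+/-, against 3.11, 3.60, 3.62, 2.87 and 3.19 in control. Its difference was -0.07 ± 0.15 log2 (SE). Pdgfb exceeded the olfactory 95th percentile on only 4 of 10 arrays, so a change of this gene may not be visible on these arrays, whereas the other 5 members exceeded it on all 10.

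Set against the other ligands on the same array, Pdgfd was shifted relative to Pdgfa by -1.69 log2 and relative to Pdgfb by -1.60, and for both gaps the groups did not overlap. Relative to Pdgfc the shift was -0.82, and the groups overlapped. In control the gap between Pdgfd and Pdgfc varied little (SD 0.17), whereas in Jag1+/-Rfng+/- it varied with an SD of 0.78. These shifts restate the contrast that chose the genes and were not tested.

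Of the receptors, Pdgfra (probe set 17438246, chromosome 5) encodes the alpha chain, the receptor of PDGF-A and PDGF-C. It read 5.25, 5.13, 4.32, 5.61 and 4.52 in Jag1+/-Rfng+/- replicates 1 to 5, against 5.89, 6.48, 6.18, 5.54 and 5.99 in control replicates 1 to 5. The only overlap was Jag1+/-Rfng+/- replicate 4, just above control replicate 4. Means were 4.97 ± 0.54 in Jag1+/-Rfng+/- and 6.02 ± 0.35 in control (SD, n = 5 each), a difference of -1.05 ± 0.25 log2 (SE).

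Pdgfrb (probe set 17351027, chromosome 18) encodes the beta chain, the receptor of PDGF-B and PDGF-D. It read 5.65, 6.44, 6.39, 6.75 and 5.51 in Jag1+/-Rfng+/-, against 6.62, 7.48, 8.38, 6.28 and 6.72 in control. Only Jag1+/-Rfng+/- replicates 1 and 5 lay below the lowest control, and control replicate 3 was the highest array. Means were 6.15 ± 0.54 in Jag1+/-Rfng+/- and 7.10 ± 0.84 in control (SD, n = 5 each), a difference of -0.95 ± 0.37 log2 (SE), which became -0.63 without control replicate 3. Relative to Pdgfrb on the same array Pdgfd was shifted by -0.71 log2 and Pdgfra by -0.10, with overlapping groups in each case.

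Without Jag1+/-Rfng+/- replicate 5, Pdgfd differed by -1.63, Pdgfra by -0.94, Pdgfrb by -0.79 and Pdgfc by -0.90 log2. The sample names hold numbers of unstated meaning, and 1 number occurs in both genotypes, on 7 arrays (4 Jag1+/-Rfng+/- and 3 control). On these 7 arrays the differences were -1.79 for Pdgfd, -1.17 for Pdgfra, -1.11 for Pdgfrb and -1.06 for Pdgfc. The other 3 arrays carry numbers of 1 array each, too few for a value.

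Markers of the duct epithelium and of the portal mesenchyme also lay lower in Jag1+/-Rfng+/-. The biliary epithelium list, without Pdgfd, ran from -0.95 to -0.33 on Jag1+/-Rfng+/- arrays and from -0.42 to 0.51 on control arrays, as the mean log2 distance of its 14 measured genes from their control means. Of these, 12 were lower and 2 higher, with a median difference of -0.73 against -0.01 over all genes, and 51.5% of all genes were lower. At an unadjusted p under 0.05 it had 9 lower and 2 higher members, where 3.79% of all genes were lower and 2.98% higher, and 0 past an adjusted p of 0.05. The portal fibroblast list, which holds neither receptor, ran from -1.32 to 0.22 on Jag1+/-Rfng+/- arrays and from -0.68 to 0.46 on control arrays. Of its 20 measured genes 16 were lower, 7 of them at an unadjusted p under 0.05 (3.79% of all genes), with a median of -0.71, and 0 passed an adjusted p of 0.05. The smooth muscle and pericyte list had 11 of 14 genes lower and a median of -0.23. At an unadjusted p under 0.05 it had 3 lower and 0 higher, against 3.79% and 2.98% of all genes. Its means ran from -0.79 to 0.46 on Jag1+/-Rfng+/- arrays and from -0.57 to 0.45 on control arrays, so the groups overlapped widely. The cell type lists were chosen with earlier results of these data known, so their counts are a description and support nothing further.

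Lists of other cells that carry PDGF receptors or make the ligands had medians nearer control. Hepatic stellate cells, which also carry the beta receptor, had 4 of 10 markers lower and a median of 0.14. Their list ran from -0.21 to 0.32 on Jag1+/-Rfng+/- arrays and from -0.13 to 0.20 on control arrays. The endothelial list had a median of 0.09 and the megakaryocyte and platelet list, another source of PDGF, one of -0.14. In control 2 of the 14 biliary, 3 of the 20 portal fibroblast and 0 of the 10 stellate markers averaged below the olfactory 95th percentile, so most markers of the labelled tissue were above that level.

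Fitted with the portal fibroblast mean as a covariate, the difference was -1.19 for Pdgfd, -0.71 for Pdgfra, -0.70 for Pdgfc and -0.25 for Pdgfrb. The same fit with the biliary list gave -0.68 for Pdgfd, -0.61 for Pdgfra, -0.18 for Pdgfc and 0.32 for Pdgfrb, the sign of the last turned round. That list ran from -0.95 to -0.33 on Jag1+/-Rfng+/- arrays and from -0.42 to 0.51 on control arrays. With so little overlap the fit separates list and genotype poorly, and no SE is given for either covariate fit. The part of either cell type in the differences was not tested.

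**Figure D2:**
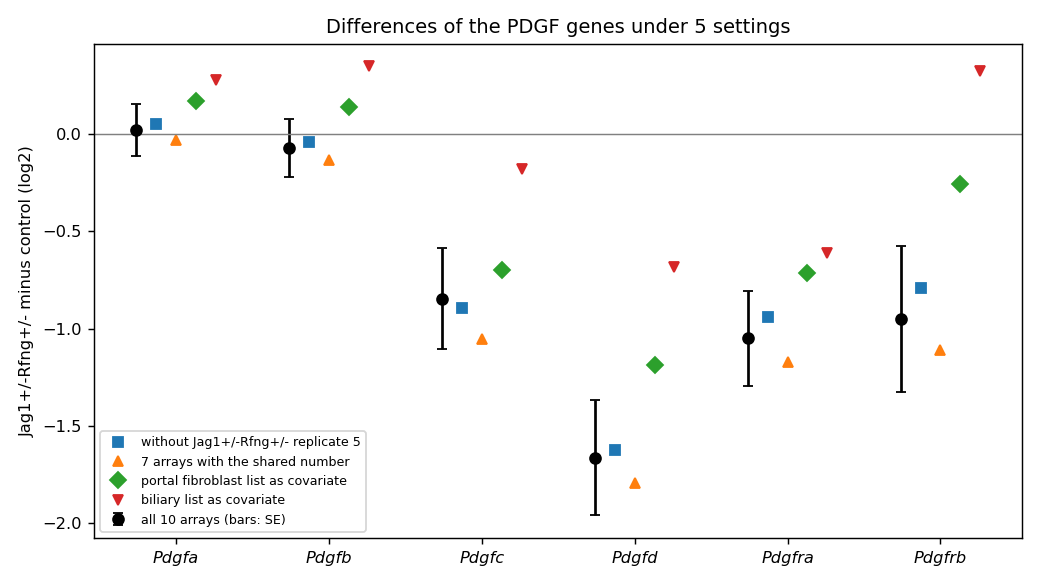
Jag1+/-Rfng+/- minus control in log2 (vertical axis) for the 6 PDGF genes over all 10 arrays (black, bars SE), without Jag1+/-Rfng+/- replicate 5, on the 7 arrays that share a number, and with either marker list as a covariate. Pdgfd, Pdgfra and Pdgfc are below 0 under all 5 settings, and Pdgfrb is at 0.32 with the biliary list as covariate.

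How the 6 genes varied among arrays of the same group was not used to choose them and could be tested. Each value was taken as a deviation from its group mean, and the correlations over 10 arrays were tested by an exact permutation of all 14400 pairings within the groups, two-sided. Of 15 pairs of members, 2 passed by Pearson's r with Benjamini-Hochberg adjustment over the pairs, and both contain Pdgfrb. Pdgfd and Pdgfrb, ligand and receptor, varied together with Pearson r = 0.86 (exact permutation p = 0.00382, adjusted 0.0286) and Spearman rho = 0.79 (p = 0.0161, adjusted 0.121). Without the 2 arrays farthest from the median of Pdgfd, r was 0.78 (exact p = 0.0503). Among 10326 other genes above the median level, Pdgfrb ranked 143rd in likeness to Pdgfd, and Pdgfd 276th to Pdgfrb. An r of this size is therefore not particular to the pair. Pdgfb and Pdgfrb gave r = 0.87 (exact permutation p = 0.00229, adjusted 0.0286) and rho = 0.90 (p = 0.000625, adjusted 0.00938), and r = 0.73 without the 2 arrays farthest in Pdgfb (exact p = 0.0444), with Pdgfb at the level of absent transcripts.

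Pdgfra was not among the pairs that passed. With Pdgfrb it gave r = 0.50 (exact permutation p = 0.129, adjusted 0.241; rho = 0.58, p = 0.0983), with Pdgfc r = 0.46 (p = 0.231, adjusted 0.296; rho = 0.55, p = 0.129) and with Pdgfd r = 0.29 (p = 0.443, adjusted 0.474; rho = 0.26, p = 0.490). The latent ligands Pdgfc and Pdgfd gave r = 0.41 (exact permutation p = 0.257, adjusted 0.296; rho = 0.39, p = 0.285). The r of the 15 pairs ran from 0.16 for Pdgfa with Pdgfc to 0.87, all above 0. Without the 2 farthest arrays fewer pairings exist, but calls were still possible, and 0 pairs passed. Of the fits with 1 array left out, 1 pair passed without Jag1+/-Rfng+/- replicate 2 or 4 and 0 without any other array, and Pdgfd with Pdgfrb stayed between r = 0.80 and 0.90. On the 7 arrays with the shared number r was 0.98 for Pdgfd with Pdgfrb and 0.86 for Pdgfb with Pdgfrb, where only 144 pairings exist.

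**Figure D3:**
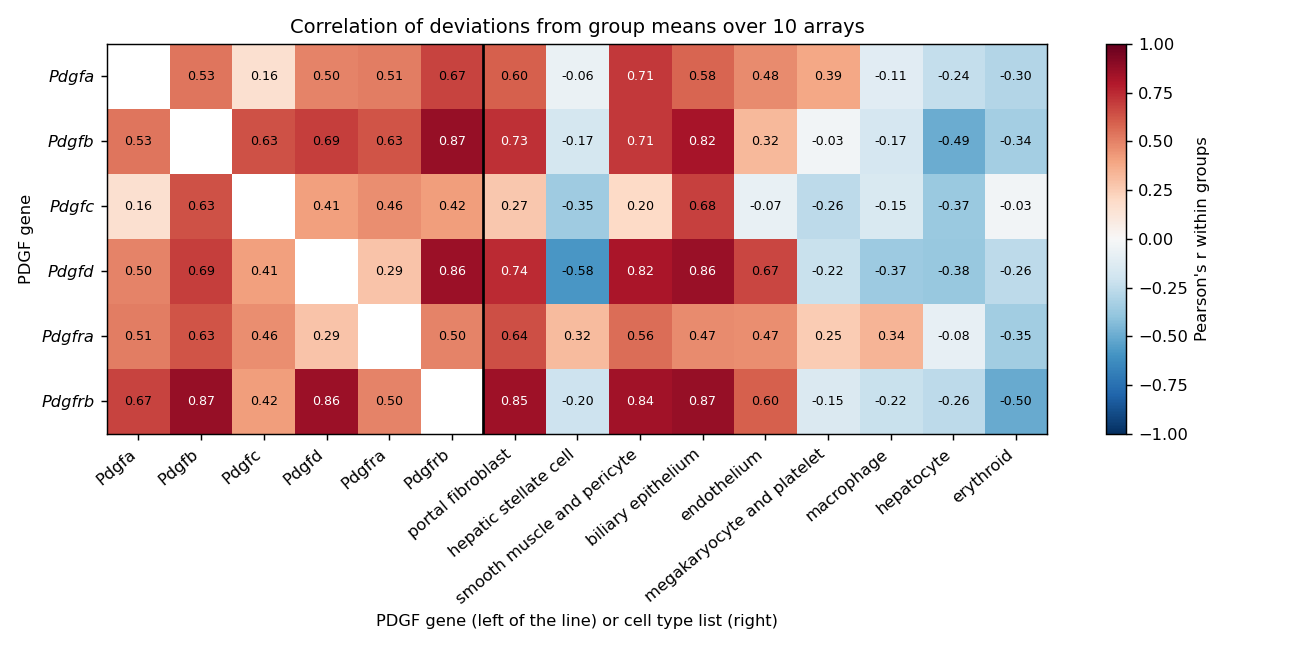
Pearson's r (colour and digits) of deviations from group means over 10 arrays, for each PDGF gene (rows) with the other members (left of the line) and with the mean of each cell type list (right). Pdgfrb is at 0.84 or above with Pdgfb, Pdgfd and the portal fibroblast, smooth muscle and biliary lists, and Pdgfra reaches at most 0.64 with any list.

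Against the 9 cell type lists, 5 of 54 relations passed by Pearson's r with adjustment over all 54, and 3 of them were those of Pdgfrb. It varied with the portal fibroblast list (r = 0.85, exact permutation p = 0.00167, adjusted 0.045; rho = 0.94, p = 0.000764, adjusted 0.0413; r = 0.82 without the 2 farthest arrays). With the smooth muscle and pericyte list it gave r = 0.84 (exact permutation p = 0.00167, adjusted 0.045; rho = 0.92, p = 0.00153, adjusted 0.0413; r = 0.87 without the 2 farthest arrays). With the biliary list Pdgfrb gave r = 0.87 (exact permutation p = 0.00424, adjusted 0.0473; rho = 0.79, p = 0.0175, adjusted 0.170; r = 0.86 without the 2 farthest arrays). Pdgfd passed with the biliary list (r = 0.86, exact permutation p = 0.00438, adjusted 0.0473; rho = 0.78, p = 0.0231, adjusted 0.170), and r was 0.75 without the 2 farthest arrays (exact p = 0.0639). Its r was 0.82 with smooth muscle (exact permutation p = 0.0106, adjusted 0.0956; rho = 0.82, p = 0.0110) and 0.74 with portal fibroblasts (exact permutation p = 0.0187, adjusted 0.112; rho = 0.72, p = 0.0315). Pdgfb passed with the portal fibroblast list (r = 0.73, exact permutation p = 0.00326, adjusted 0.0473; rho = 0.78, p = 0.00604, adjusted 0.109; r = 0.74 without the 2 farthest arrays). By rank, only 2 relations passed with adjustment, those of Pdgfrb with the portal fibroblast and the smooth muscle and pericyte lists.

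The biliary, fibroblast and smooth muscle lists come from the same captured tracts, and the relations do not say which cell makes a transcript. Pdgfra, the fibroblast marker, gave r = 0.64 with the portal fibroblast list (exact permutation p = 0.0876, adjusted 0.293, and rho = 0.62, p = 0.0851). This r changed with the arrays used. It was 0.21 without the 2 farthest arrays, 0.45 to 0.84 with single arrays left out, and 0.85 on the arrays with the shared number. On Jag1+/-Rfng+/- replicate 3 Pdgfra had its lowest value, 4.32, while the fibroblast list stood at -0.62, above the -1.20 and -1.32 of replicates 1 and 5. Of these relations 6 passed without Jag1+/-Rfng+/- replicate 2, 1 without control replicate 5 and 0 without any other single array. After quantile normalization 0 passed, with r of 0.76 to 0.86 for the 5, and 0 passed without the 2 farthest arrays, where fewer pairings exist.

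**Figure D4:**
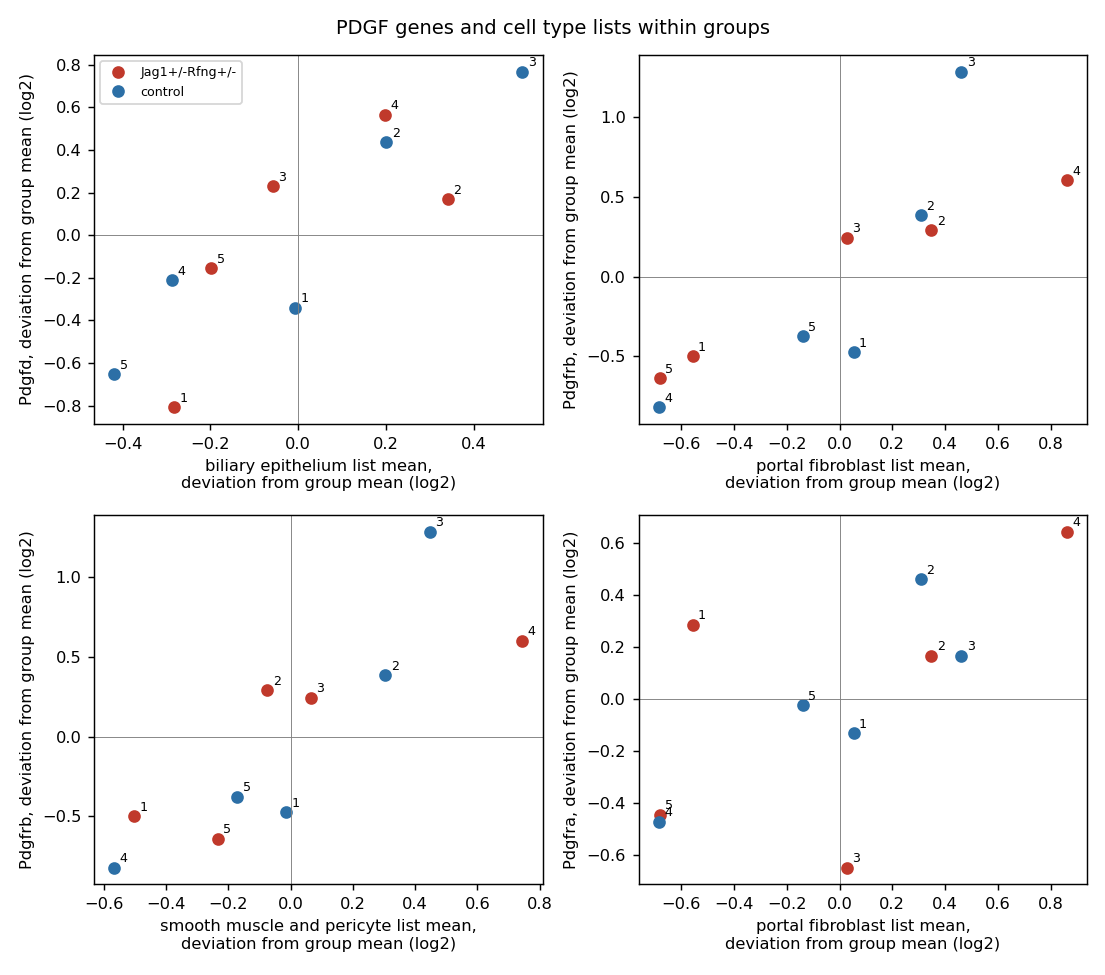
Deviation of a PDGF gene from its group mean (vertical, log2) against that of a cell type list (horizontal, log2), for Jag1+/-Rfng+/- (red) and control (blue) arrays with replicate numbers. Pdgfd with the biliary list and Pdgfrb with the fibroblast and smooth muscle lists run along a diagonal (r = 0.86, 0.85 and 0.84), and Pdgfra with the fibroblast list scatters more (r = 0.64).

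The genes whose within-group pattern was most like each member were taken from the 10326 other genes above the median level of 3.74 (10327 for Pdgfb, which lies below it). They were picked as the highest of many r over 10 arrays, so no p is given. Most like Pdgfd were Plxna1 (r = 0.98, rho = 0.98), a plexin receptor, the annexin genes Anxa6 (r = 0.97, rho = 0.99) and Anxa13 (r = 0.96, rho = 0.95), and Tln1, which encodes the integrin adaptor talin (r = 0.96, rho = 0.98). None of these shared its group difference, since they differed by -0.18, 0.05, -0.14 and -0.06 log2. Pdgfrb was most like Erdr1 (r = 0.98, rho = 0.93), Lix1l (r = 0.98, rho = 1.00), Cd34 (r = 0.97, rho = 0.98), a surface glycoprotein of endothelium and fibroblasts, and the laminin chain gene Lama4 (r = 0.97, rho = 0.95). Cd34, Lama4 and Lix1l differed by -0.78, -0.53 and -0.49 log2, and Erdr1 by 0.78.

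Pdgfra was most like the nuclear RNA Malat1 (r = 0.97, rho = 0.96), the microtubule protein gene Map4 (r = 0.94, rho = 0.89), the profilin gene Pfn1 (r = 0.94, rho = 0.92) and Zfr (r = 0.91, rho = 0.90), with differences of 0.02, -0.02, -0.04 and -0.32 log2. No gene of the portal fibroblast list was among them, nor among those named above for Pdgfd and Pdgfrb. So few of the compared genes were named that this absence was likely in any case, and no conclusion about fibroblasts is drawn from it. For Pdgfa the most alike were Gata6os (r = 0.96, rho = 0.95) and Eva1b (r = 0.95, rho = 0.96). For Pdgfb they were Synpo, which encodes synaptopodin (r = 0.96, rho = 0.93), and Gnb4, a G protein beta subunit gene (r = 0.95, rho = 0.95). For Pdgfc they were Wfikkn1 (r = 0.97, rho = 0.96) and Myo18a, an unconventional myosin gene (r = 0.91, rho = 0.87). Among the members, Pdgfrb ranked 143rd in likeness to Pdgfd and 102nd to Pdgfb.

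Genes that act around the ligands and receptors were described from 4 lists. These too were chosen with earlier results of these data known, so their counts are a description. Of 13 measured genes for ligand processing, binding and co-receptors, 8 were lower and 5 higher, with a median of -0.03 log2 against -0.01 over all genes. At an unadjusted p under 0.05 there was 1 lower and 0 higher, against 3.79% and 2.98% of all genes, and 0 passed an adjusted p of 0.05. That gene was Nrp1, which encodes neuropilin-1, a co-receptor that also binds PDGF. It averaged 6.13 ± 0.46 in Jag1+/-Rfng+/- and 6.73 ± 0.15 in control (SD, n = 5 each; -0.60 ± 0.19 log2, SE; limma adjusted p = 0.564), with groups that did not overlap, as for 0.766% of all genes on the lower side. St14, which encodes matriptase, a protease that activates PDGF-D, differed by -0.54 ± 0.26 log2 (SE; limma adjusted p = 0.739) and Pdgfrl, a PDGF receptor-like gene, by -0.50 ± 0.27 (SE; limma adjusted p = 0.771).

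Downstream of the receptors, 37 genes of signal transduction were measured, the adaptors, kinases, phosphatases and feedback inhibitors that receptor activation engages. Of these 24 were lower and 13 higher, with a median of -0.05 log2, and 3 lower and 0 higher had an unadjusted p under 0.05, where 3.79% of all genes were lower and 2.98% higher (6.76% in either direction). Past an adjusted p of 0.05 there were 0. The feedback inhibitor gene Spry4, itself induced by receptor tyrosine kinase signals, averaged 4.85 ± 0.22 in Jag1+/-Rfng+/- and 5.43 ± 0.24 in control (SD, n = 5 each; -0.58 ± 0.14 log2, SE; limma adjusted p = 0.337). The docking protein gene Gab1 averaged 6.34 ± 0.21 in Jag1+/-Rfng+/- and 6.73 ± 0.06 in control (SD, n = 5 each; -0.39 ± 0.11 log2, SE; limma adjusted p = 0.444). For Spry4 and Gab1 the groups did not overlap, as for 0.766% of all genes on the lower side. Cbl, a ubiquitin ligase gene that sends activated receptors to degradation, differed by -0.28 ± 0.12 log2 (SE; limma adjusted p = 0.725).

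Genes first known as induced by PDGF in cultured fibroblasts did not lie lower as a list. In both groups 2 of the 13 averaged below the olfactory 95th percentile, so a fall of these may not be visible. Of 13 measured, 5 were lower and 8 higher, with a median of 0.07 log2, and 0 lower and 1 higher had an unadjusted p under 0.05, against 3.79% and 2.98% of all genes. That gene was Ccl2, a chemokine of monocytes, which averaged 6.18 ± 1.30 in Jag1+/-Rfng+/- and 4.72 ± 0.75 in control (SD, n = 5 each; 1.46 ± 0.56 log2, SE; limma adjusted p = 0.632). Dusp6, a phosphatase gene of the ERK pathway, differed by -0.29 ± 0.20 log2 (SE; limma adjusted p = 0.832) and the immediate early gene Egr1 by 0.37 ± 0.32 (SE; limma adjusted p = 0.865).

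The related family of VEGF ligands, class III and class V receptors and their ligands had 14 measured genes, 6 lower and 8 higher, with a median of 0.01 log2. At an unadjusted p under 0.05 it had 1 lower and 0 higher, against 3.79% and 2.98% of all genes, and 0 passed an adjusted p of 0.05. Kitl, which encodes the ligand of Kit, a class III receptor like those of PDGF, averaged 3.56 ± 0.32 in Jag1+/-Rfng+/- and 4.14 ± 0.24 in control (SD, n = 5 each; -0.58 ± 0.16 log2, SE; limma adjusted p = 0.461). The macrophage growth factor gene Csf1 and its receptor gene Csf1r differed by 0.28 ± 0.14 and 0.30 ± 0.16 log2 (SE; limma adjusted p = 0.764 and 0.775), at macrophage list means of -0.41 to 0.77 on Jag1+/-Rfng+/- arrays and -0.32 to 0.27 on control arrays. The part of macrophages in these values was not tested.

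**Figure D5:**
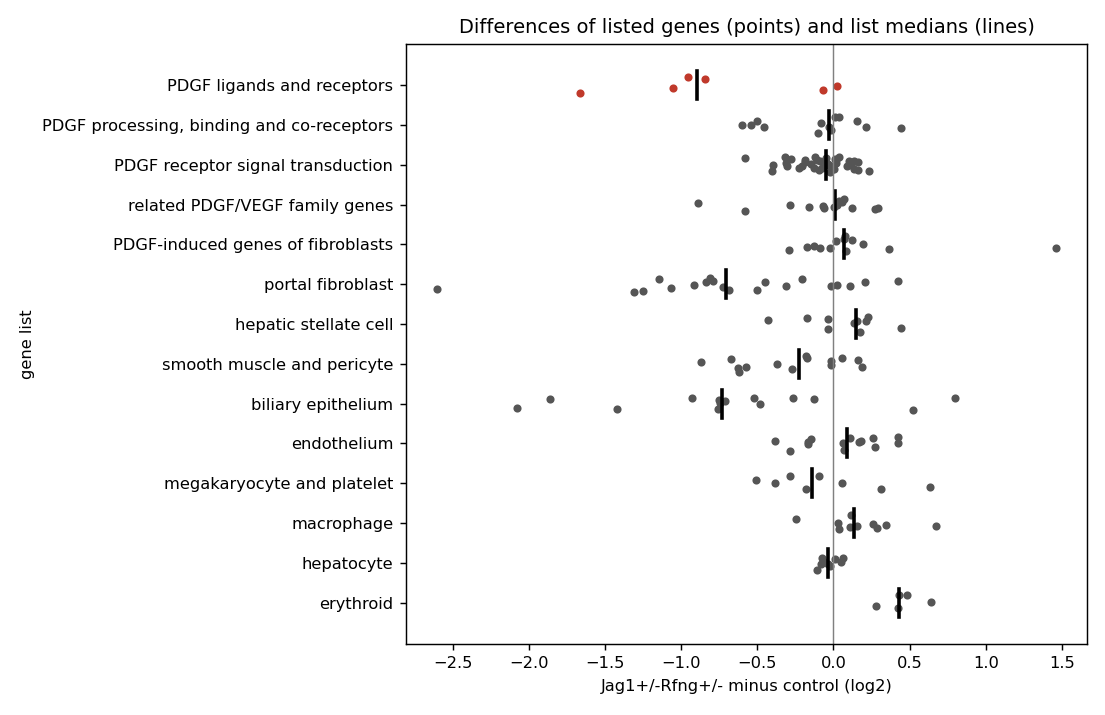
Jag1+/-Rfng+/- minus control in log2 (horizontal axis) for each measured gene (points) of the PDGF genes (red), 4 pathway lists and 9 cell type lists (grey), with list medians as lines. The PDGF genes, which were chosen with this contrast known, have a median of -0.90, so it is a description. The portal fibroblast list has a median of -0.71 and the biliary list -0.73, and those of the 4 pathway lists lie between -0.05 and 0.07. The lists were also chosen with earlier results of these data known.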

How the data were processed

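The authors deposited log2 values for 33649 probe sets on each array. RMA and Partek 6.6 are named per the submitters' processing notes, with no role or order. RMA usually makes the folds of dim genes smaller. Detection calls were not used here, and 0 pairs of arrays were identical.

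Gene symbols came from the platform annotation: 23521 probe sets have 1 symbol, 1814 several and 8314 none. Sets with 1 symbol were used, the brightest per gene, which gave 22180 genes. Groups came from sample titles. All genes were fitted with limma 3.58.1 in R 4.3.3 (lmFit, eBayes, two-sided, Benjamini-Hochberg over all genes, threshold 0.05), with no filter, and the fit was tested on simulated data. No label says that samples are separate mice, so p-values reflect variation among samples that may be technical.

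Members and lists were chosen with earlier results of these data known. Named were the 6 members, the 3 genes of lowest unadjusted p in each of 4 pathway lists, and the 4 genes (Pdgfd, Pdgfra, Pdgfrb) or 2 genes (other members) with the highest within-group r, without predicted genes, small RNAs and receptor gene families of smell, taste and immunity. Other measured genes of the lists entered the list counts, medians or means and were not named one by one. Alternatives were leaving out arrays, a replicate block, only the 7 arrays whose names share a number, other normalization, probe set and level rules, array weights, trend and robust eBayes, and list means as covariates.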

Additional observations from a re-analysis of the deposited data

Results flagged for a closer look

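Of 30 groups of 5 values examined (6 PDGF genes and 9 cell type lists in each genotype), chance would set apart about 1 in 20. The array set apart was Jag1+/-Rfng+/- replicate 5, in both cases on a cell type list and in 0 cases on a PDGF gene. Its erythroid list mean lay at 2.56 log2 above the control mean, against -0.21 to 0.26 on the other 4 Jag1+/-Rfng+/- arrays. Its hepatocyte list mean lay at -0.16, against -0.02 to 0.02 on the other 4. The differences of the PDGF genes without this array stand in the report, and the part of blood cells in them was not tested.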

How the results depend on the processing

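Pdgfc, Pdgfd and Pdgfra were lower in Jag1+/-Rfng+/- under every alternative, and Pdgfrb under all but the biliary covariate. Some alternatives could not change these differences and are no check of them. They are trend and robust eBayes, the level rule, the replicate block and, with 1 probe set per member, the probe set rule. Array weights (Pdgfd -1.59, Pdgfra -1.05, Pdgfc -0.93, Pdgfrb -0.87) and trend and robust eBayes were added for the members after seeing the data. With 1 array left out the differences ran from -1.83 to -1.46 log2 for Pdgfd, -1.21 to -0.89 for Pdgfra, -1.16 to -0.63 for Pdgfrb, -1.02 to -0.66 for Pdgfc, -0.17 to 0.02 for Pdgfb and -0.05 to 0.11 for Pdgfa. With the biliary list as a covariate they were 0.28 for Pdgfa, 0.35 for Pdgfb, -0.18 for Pdgfc, -0.68 for Pdgfd and 0.32 for Pdgfrb, the last reversed. That list overlaps little between the groups, so these values are poorly determined, and the cause was not tested.

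Genes past an adjusted p of 0.05 numbered 2, and 0 on the shared-number arrays without replicate 5, 11 among genes above the median level, 5 with array weights, 11 with trend and robust eBayes and 2 to 6 with 1 array left out. At an unadjusted p under 0.05 there were 1500 genes (840 lower, 660 higher), and 848 (528 lower, 320 higher) above the median level, where fewer genes were tested. With 1 array left out there were 1330 to 1576 (719 to 941 lower, 544 to 703 higher).

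The processing list had 1 gene at an unadjusted p under 0.05, and 2 with the replicate block, on the shared-number arrays with or without replicate 5, and with median centring (1 to 3 with 1 array left out). The related family had 1, and 2 on the shared-number arrays with or without replicate 5 and 3 with quantile normalization (1 to 3 with 1 array left out). The fibroblast-induced list had 1, and 2 on the shared-number arrays without replicate 5 (0 to 1 with 1 array left out), and signal transduction had 3 (2 to 5).

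Pairs of members past the adjusted threshold numbered 2, and 0 without the 2 farthest arrays, 0 on the 7 shared-number arrays and 0 to 1 with 1 array left out. Relations with cell lists numbered 5, and 0 without the 2 farthest arrays, 0 with quantile normalization, 0 on the 7 arrays and 0 to 6 with 1 array left out. With 1 array left out 2880 pairings exist and calls were possible, and which pairs and relations passed changed with single arrays. The r moved less, from 0.80 to 0.90 for Pdgfd with Pdgfrb and from 0.80 to 0.93 for Pdgfrb with the portal fibroblast list. Without the 2 farthest arrays fewer than 2880 pairings exist, and on the 7 arrays only 144. Fewer pairings make the smallest possible p larger, so a count of 0 on the 7 arrays says little about a relation. For the pairs, calls were still possible without the 2 farthest arrays. There Pdgfd with Pdgfrb had r = 0.78 (exact permutation p = 0.0503) and Pdgfb with Pdgfrb r = 0.73 (exact permutation p = 0.0444). The 5 cell list relations had exact permutation p of 0.00868 to 0.0639 there. Quantile normalization used all arrays, and the cause of its count was not tested.

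Replicate numbers are shared by the groups without a stated meaning, and the correlations of same-numbered deviations ran from -0.23 to 0.06, so they were not taken as pairs. The replicate block gave 2 genes past the adjusted threshold. Each replicate number is used equally in both groups, so the block could not change a member's difference (Pdgfd -1.67). Dim genes such as Pdgfb are limited by signal over background.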
